A study of Mus musculus with 6 samples.

Results

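The stimulated state in the presence of muscone was described by setting the MUS libraries against the Control libraries of mouse peritoneal macrophages. Members were the genes with a mean FPKM (fragments per kilobase of gene, scaled to the size of the library) of at least 1 over the 2 Control and 2 MUS libraries. They numbered 9860 of the 54532 genes in the deposited table, of which 22943 were above 0 in at least 1 of these 4 libraries. Of the members, 8723 were protein-coding genes and 489 were processed pseudogenes. The study asked how muscone acts on macrophages driven into NLRP3 inflammasome activation, and its poly-A RNA-seq held 3 groups of 2 libraries. All cells were wild type and came from the peritoneal cavity of male C57BL/6J mice of 6 to 8 weeks, harvested 5 days after 3% thioglycolate, an irritant that draws macrophages into the cavity. Control cells received no stimulus. MUS cells received LPS, a bacterial cell wall component, at 500 ng/mL for 5.5 h and then 2 mM ATP for 0.5 h, with 50 µM muscone added 5 h after LPS. Model cells received the same LPS and ATP without muscone. No group received muscone alone, so in MUS vs. Control the effects of LPS, ATP and muscone cannot be told apart. Nothing in the labels ties the 2 libraries of a group to separate mice, and p-values then measure only the spread between these libraries.

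Macrophages sense LPS through TLR4. Its adaptors switch on NF-κB, MAP kinases and IRF3, which drive cytokine, chemokine and interferon genes, and secreted interferon then drives a further set through its own receptor. Priming of this kind also raises NLRP3 and pro-IL-1β, and extracellular ATP acting on the P2X7 channel then lets NLRP3, the adaptor ASC and caspase-1 assemble. The kinase PINK1 marks damaged mitochondria for removal by autophagy. Muscone is a macrocyclic ketone, the odorant of musk.

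The 4 libraries held between 15742538 and 17135442 fragments on genes, recovered as whole numbers from the FPKM. A gene of 1 kb with 3 fragments, the most that a count of 0 allows, would stand at 0.131 to 0.198 FPKM, and this limit covers counting error only. The Pearson correlation of log2(FPKM + 1) was 0.922 between the Control libraries and 0.980 between the MUS libraries, computed across genes, which are no independent replicates. The Control libraries differed in the direction of the stimulus. Control replicate 2 lay above Control replicate 1 in 911 of the 1104 upregulated genes given next (82.5%), against 52.7% of all members. It lay below in 743 of the 905 downregulated genes (82.1%). Its part in the results was not tested, but the counts of DEGs and of each gene list were also taken without it. Both MUS libraries and both Control libraries expressed the defining macrophage genes. The 14 macrophage markers summed to 12983 and 14487 FPKM in Control and to 13846 and 12023 FPKM in MUS. Lyz2, the macrophage lysozyme, made up most of each sum, at 10252 and 12007 FPKM in Control and 10904 and 9016 FPKM in MUS. The sums therefore say little about the other markers. Genes that mark the resident peritoneal macrophage were low, and 5 of 10 passed the filter.

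In MUS vs. Control, 2009 of 9860 genes (20.4%) were DEGs, of which 1104 (11.2%) were upregulated and 905 (9.18%) were downregulated. A DEG had a limma adjusted p of at most 0.05 (Benjamini-Hochberg, over all 9860 genes) and an absolute log2 fold change over 1 on the log2(FPKM + 1) scale, which understates the change of genes with low FPKM. The MUS libraries did not overlap the Control libraries in any of the 2009 DEGs, nor in 7248 of all members. There were 213 DEGs above a log2 fold change of 3 and 19 below -3. On this scale a fall is bounded by the Control level, which had a median of 5.30 FPKM over all members. A rise has no such bound, so these counts cannot be compared. The median over all members was 0.03, and the middle 50% of the 7851 genes that were not called lay between -0.38 and 0.43. Of the upregulated DEGs, 251 had a Control mean under 1 FPKM and so passed the filter through MUS alone, which fixed their direction. Those named below include Il6, Edn1, Il10, Nos2, Nr4a3, Lcn2, Ch25h, Ccnd2, Lck, Hdc and Ccr7. Likewise, 272 downregulated DEGs had a MUS mean under 1 FPKM and passed through Control alone, among them Tmem86a, Tfeb and Atpif1. The deposited per-million scale was 1.45 and 1.34 times the fragments on genes in Control but 0.932 and 0.986 times in MUS. Scaled to fragment totals instead, the median of all members moved to -0.40 and the DEGs divided into 734 upregulated and 1982 downregulated genes. Directions are therefore relative to the deposited scale.

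**Figure D1:**
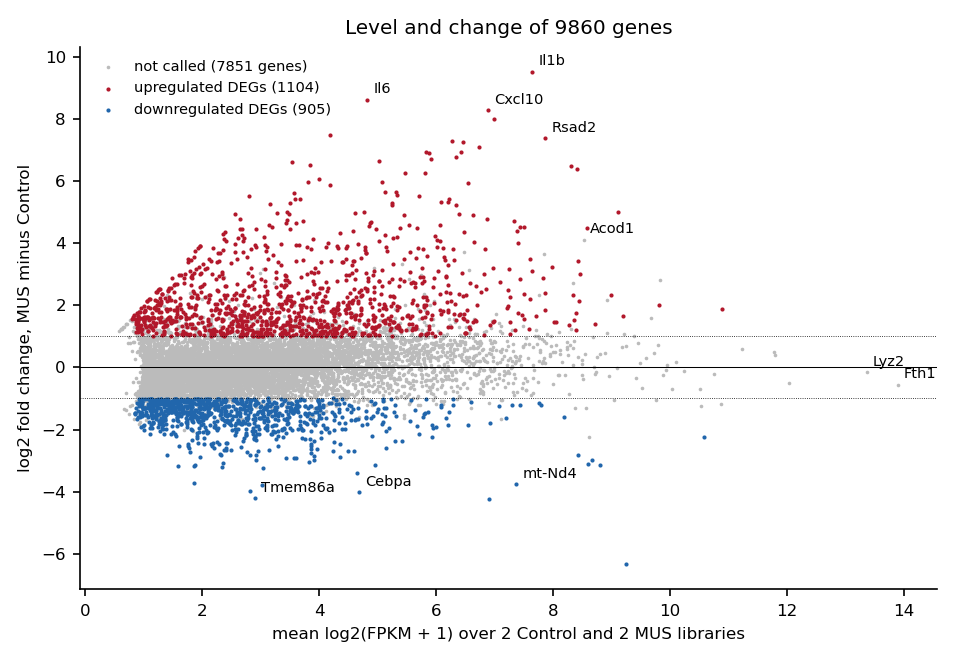
Log2 fold change of MUS minus Control (y axis) against mean log2(FPKM + 1) over the 2 Control and 2 MUS libraries (x axis), 1 point per gene. Upregulated DEGs (red, 1104 genes) reach 9.51 for Il1b, while downregulated DEGs (blue, 905 genes) mostly lie above -4, and the genes of the highest level, Fth1 and Lyz2, were not called. On the log2(FPKM + 1) scale a fall, unlike a rise, is bounded by the Control level.

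The labels give each library a batch, 1 or 2, which is also its replicate number. Within batch 1 the difference between the groups was larger, and the gap between the Control libraries enters it. Upregulated DEGs had a median difference of 2.11 on the log2 scale within batch 1 and 1.57 within batch 2, and downregulated DEGs had -1.78 and -1.12. Without Control replicate 2 there were 2463 DEGs, without Control replicate 1 there were 1112. The count fell most when a MUS library was left out, which left that group with 1 library. In such a fit the spread comes from the Control and Model libraries alone. The fall in calls therefore does not show that the changes rest on 1 MUS library. Of the 118 DEGs named by the rule for this comparison, 24 were called without MUS replicate 1 and 55 without MUS replicate 2, while 115 were called without Control replicate 2. None changed direction. The counts of the gene lists moved likewise. For many lists they are given below without Control replicate 1, Control replicate 2, MUS replicate 1 and MUS replicate 2, in this order. Counts given without them were not all stable. Those of the NRF2, heat shock, cell cycle, stress response and cholesterol lists and of downregulated apoptosis genes also moved by more than 1.5 times. Every list count is to be read beside the 11.2% of all members upregulated and the 9.18% downregulated.

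**Figure D2:**
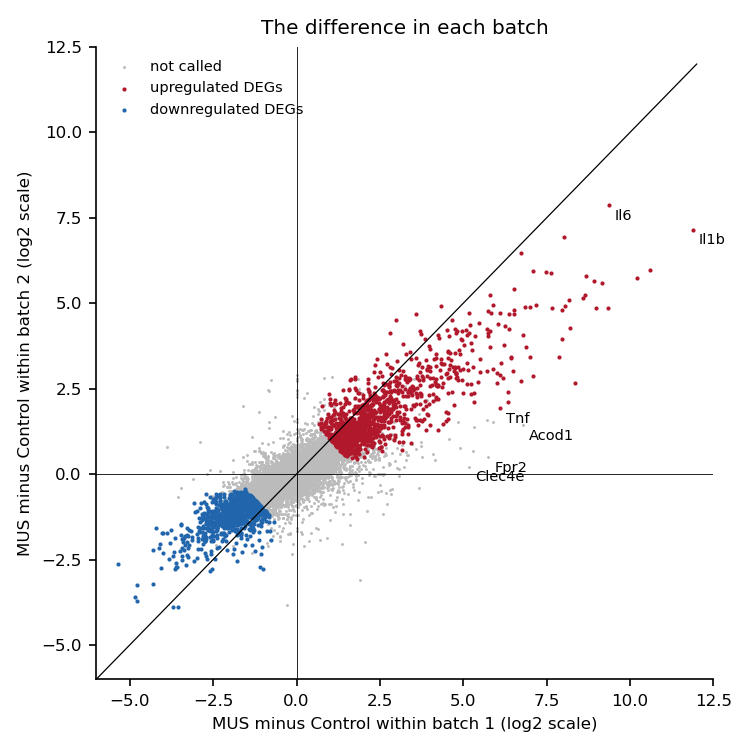
Difference between MUS and Control on the log2(FPKM + 1) scale within batch 1 (x axis) and within batch 2 (y axis), 1 point per gene, with the line of equal difference. Of the upregulated DEGs, 930 lie under the line, and Acod1, Clec4e and Fpr2, which are far under it, were not called.

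A cytokine pair and a chemokine led the increases. Il1b (chr2:129364570-129371139, minus strand, GRCm38), which encodes the IL-1β precursor, stood at 0.550 and 34.2 FPKM in Control and at 5832 and 5003 FPKM in MUS. Every MUS library was far above both Control libraries, which themselves differed widely. Its log2 fold change reached 9.51 (limma adjusted p = 0.00411) with a standard error of 1.26. By FPKM, Il1b stood at rank 3 of the 9860 genes in MUS and at rank 1862 in Control. Il6, a cytokine of the acute phase response, rose from 0.0901 and 0.864 FPKM to 716 and 436 FPKM (log2 fold change 8.62, standard error 0.48, limma adjusted p = 5.8e-04). Cxcl10, an interferon-induced T cell attractant, rose from 0.505 and 29.2 FPKM to 2314 and 1885 FPKM (log2 fold change 8.28, standard error 1.21, limma adjusted p = 0.00537). The smaller error of Il6 goes with Control libraries that were both under 1 FPKM.

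The promoters of these 3 genes are shown with those of Tmem86a and Cebpa, the largest decreases that have an entry in the RefSeq promoter table, so that the start-site sequences of the genes at both ends of the ranking can be read side by side. Each runs 5′ to 3′ from 250 bases before the start site to 50 bases after it on GRCm38.p6. Capitals mark matches on either strand to the NF-κB consensus, to the core of the interferon-stimulated response element (ISRE, AAANNGAAA), to the AP-1 motif TGANTCA and to the cAMP response element TGACGTCA. They lie at chr2:129371090-129371389 (minus strand, Il1b), chr5:30012864-30013163 (plus strand, Il6), chr5:92348840-92349139 (minus strand, Cxcl10), chr7:47050390-47050689 (plus strand, Tmem86a) and chr7:35119043-35119342 (plus strand, Cebpa).
Il1b: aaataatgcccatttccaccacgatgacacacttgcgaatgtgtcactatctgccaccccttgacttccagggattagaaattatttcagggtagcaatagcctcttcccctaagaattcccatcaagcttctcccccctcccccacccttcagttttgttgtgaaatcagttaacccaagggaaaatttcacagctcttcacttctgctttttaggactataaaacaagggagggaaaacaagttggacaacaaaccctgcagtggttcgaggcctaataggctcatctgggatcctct
Il6: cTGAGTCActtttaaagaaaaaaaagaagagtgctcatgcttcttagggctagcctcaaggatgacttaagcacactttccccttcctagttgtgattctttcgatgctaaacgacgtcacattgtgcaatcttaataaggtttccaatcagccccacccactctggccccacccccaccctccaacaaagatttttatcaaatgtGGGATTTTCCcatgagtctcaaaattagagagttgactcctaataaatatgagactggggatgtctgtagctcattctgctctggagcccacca
Cxcl10: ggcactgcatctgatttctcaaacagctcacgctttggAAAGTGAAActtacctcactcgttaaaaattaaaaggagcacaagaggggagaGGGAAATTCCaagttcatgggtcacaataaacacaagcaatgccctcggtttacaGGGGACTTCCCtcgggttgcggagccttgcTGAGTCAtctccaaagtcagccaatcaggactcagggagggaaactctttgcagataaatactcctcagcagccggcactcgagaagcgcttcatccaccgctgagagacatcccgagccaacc
Tmem86a: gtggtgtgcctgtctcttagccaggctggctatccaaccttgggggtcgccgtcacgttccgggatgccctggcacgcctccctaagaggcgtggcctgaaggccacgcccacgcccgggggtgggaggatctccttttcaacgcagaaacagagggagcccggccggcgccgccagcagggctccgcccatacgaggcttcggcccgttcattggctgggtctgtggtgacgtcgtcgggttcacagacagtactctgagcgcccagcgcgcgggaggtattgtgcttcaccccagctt
Cebpa: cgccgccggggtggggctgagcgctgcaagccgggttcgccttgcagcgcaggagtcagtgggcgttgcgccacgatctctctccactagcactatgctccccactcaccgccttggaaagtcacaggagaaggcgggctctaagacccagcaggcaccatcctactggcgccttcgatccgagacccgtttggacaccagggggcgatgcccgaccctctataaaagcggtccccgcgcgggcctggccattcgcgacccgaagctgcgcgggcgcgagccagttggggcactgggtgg
The Cxcl10 window held 3 matches to the NF-κB consensus, of which those starting at -104 and -103 overlap, with 1 ISRE core at -212 and 1 AP-1 motif at -74. The Il6 window held 1 NF-κB match at -44 and 1 AP-1 match at -249. The windows of Il1b, Tmem86a and Cebpa held none of these letters. Of all 32851 promoters in the table, 8.46% held the NF-κB consensus, 10.6% the ISRE core, 7.81% the AP-1 motif and 1.79% the cAMP response element. A promoter was matched to 7108 members. The NF-κB consensus was in 13.3% of 732 upregulated and 9.67% of 672 downregulated DEGs with a promoter, and in 10.1% of the 7108. The ISRE core was in 18.7%, 6.70% and 8.67%. The AP-1 motif was in 9.84%, 4.46% and 5.05%. The cAMP response element was in 3.14%, 2.68% and 3.46%. These are descriptions of letters in a window and carry no test.

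The other large increases were in genes of prostanoid, endothelin and interferon responses. Ptgs2, the inducible cyclooxygenase, stood at 0.907 and 32.1 FPKM in Control and 2272 and 1766 FPKM in MUS (log2 fold change 7.98, standard error 1.15, limma adjusted p = 0.00504). Edn1, the precursor of the vasoconstrictor endothelin-1, stood at 0.102 and 0.695 FPKM against 285 and 207 FPKM (log2 fold change 7.48, standard error 0.40, limma adjusted p = 5.8e-04). Rsad2, Cmpk2, Isg15, Ifit1 and Ifit3, all of them interferon-stimulated, had log2 fold changes of 6.94 to 7.38. For Rsad2, which encodes the antiviral enzyme viperin, both MUS libraries (3440 and 2621 FPKM) exceeded both Control libraries (4.99 and 53.1 FPKM). Of the 50-base stretches of Ifit3 transcripts, 51.2% also occur in Ifit3b, so the fragments of that pair cannot be fully separated.

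**Figure D3:**
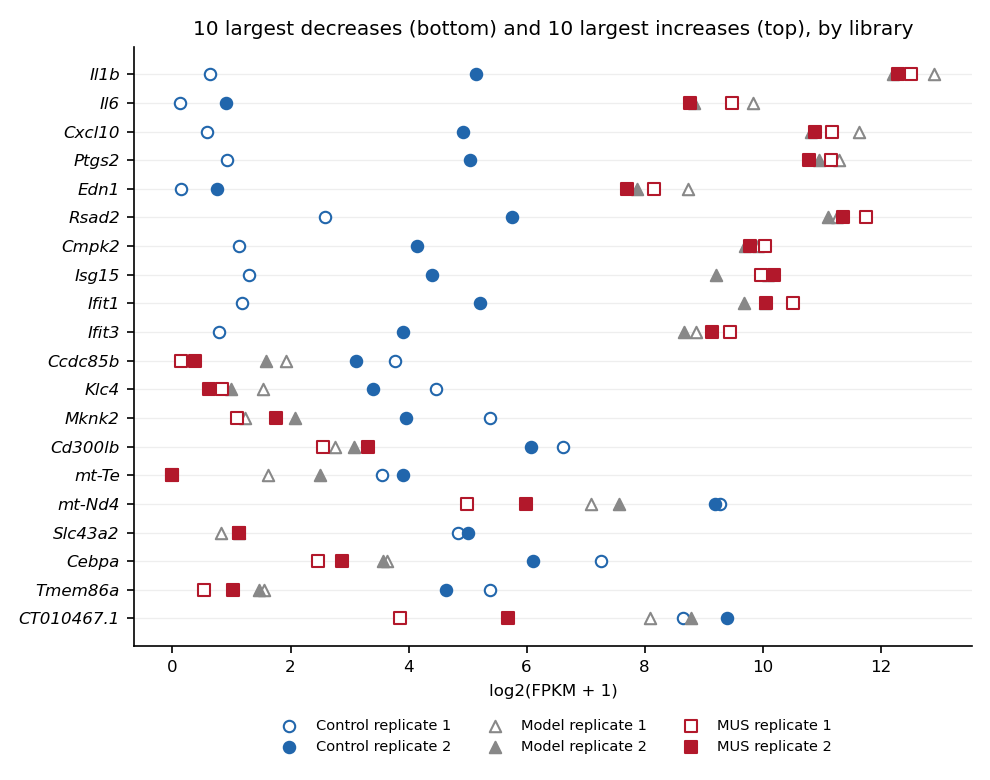
Level in log2(FPKM + 1) (x axis) of the 10 largest increases and 10 largest decreases (y axis) in each of the 6 libraries. Open and filled symbols are replicates 1 and 2. For all 20 genes the MUS libraries (squares) lie to one side of both Control libraries (circles). This was a condition of their choice, and it held for 7248 of all 9860 members. For the increases Control replicate 2 lies to the right of replicate 1.

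Proinflammatory cytokine genes rose almost throughout. Of 20 tested, 19 were upregulated and 0 downregulated, with a median log2 fold change of 4.38 against 0.03 over all members, and 19 of 20 were higher in Control replicate 2 than in replicate 1. Leaving out 1 library gave 19, 20, 11 and 17 upregulated cytokine genes. Together they held 0.0300% and 0.166% of the summed FPKM of all members in Control and 3.93% and 3.41% in MUS. Il1a, the second IL-1 ligand, rose from 12.4 and 82.0 FPKM to 3533 and 2518 FPKM, a log2 fold change of 6.48 (standard error 0.79, limma adjusted p = 0.00342). Tnf rose from 8.62 and 183 FPKM to 654 and 701 FPKM. Its log2 fold change of 4.01 carried a standard error of 1.18 (limma adjusted p = 0.0475), and without the Model libraries in the fit it was no longer called (adjusted p = 0.0712). Il18, whose product caspase-1 also matures, rose from 2.84 and 9.45 FPKM to 115 and 85.4 FPKM (log2 fold change 3.98, limma adjusted p = 0.00358). Il10, which dampens macrophage activation, stood at 0.134 and 0.167 FPKM in Control and 24.7 and 20.7 FPKM in MUS, and Il1rn, the IL-1 receptor antagonist, at 32.0 and 43.0 FPKM against 898 and 837 FPKM. Tnfsf9 was the only tested cytokine that was not called, with 13.7 FPKM in Control replicate 2 against 15.6 and 20.6 FPKM in MUS. Il10, Il1rn and Tnfsf9 were chosen after their values were seen.

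Among 21 chemokine genes tested, 15 were upregulated and 1 downregulated (median log2 fold change 3.0), or 12, 17, 4 and 6 upregulated with 1 library left out. Monocyte attractants rose strongly: Ccl2 stood at 5.92 and 19.4 FPKM in Control and 894 and 598 FPKM in MUS (log2 fold change 5.95, standard error 0.60, limma adjusted p = 0.00204), and Ccl7 at 3.71 and 11.9 FPKM against 925 and 771 FPKM (log2 fold change 6.76, limma adjusted p = 0.00122). The neutrophil attractant Cxcl2 reached 3492 and 2729 FPKM in MUS. It was already at 374 FPKM in Control replicate 2, against 24.3 FPKM in replicate 1, and its log2 fold change of 4.99 had a standard error of 1.11 (limma adjusted p = 0.0202). Ccl4, a chemokine that draws monocytes and T cells, rose from 13.3 and 97.6 FPKM to 3532 and 2723 FPKM. The single chemokine that fell was Cxcl14, chosen after its values were seen, from 14.5 and 5.26 FPKM to 2.43 and 2.26 FPKM (log2 fold change -1.56, limma adjusted p = 0.0337).

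Interferon-stimulated genes were upregulated in 44 of 47 cases and downregulated in 0, with a median log2 fold change of 4.25, and 44 of the 47 were higher in Control replicate 2. With 1 library left out the upregulated genes numbered 43, 45, 11 and 29, so that the count rested on both MUS libraries. The list held 0.175% and 0.490% of the summed FPKM in Control and 5.37% and 5.06% in MUS. Isg15, a ubiquitin-like modifier, stood at 1.45 and 20.1 FPKM in Control and 1000 and 1169 FPKM in MUS (log2 fold change 7.24, standard error 0.91, limma adjusted p = 0.00353). Cmpk2, a mitochondrial nucleotide kinase, stood at 1.19 and 16.7 FPKM against 1050 and 878 FPKM (log2 fold change 7.27, limma adjusted p = 0.00305). Irf7, a transcription factor of the pathway chosen after its values were seen, rose from 3.08 and 8.07 FPKM to 230 and 238 FPKM, with a log2 fold change of 5.27.

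**Figure D4:**
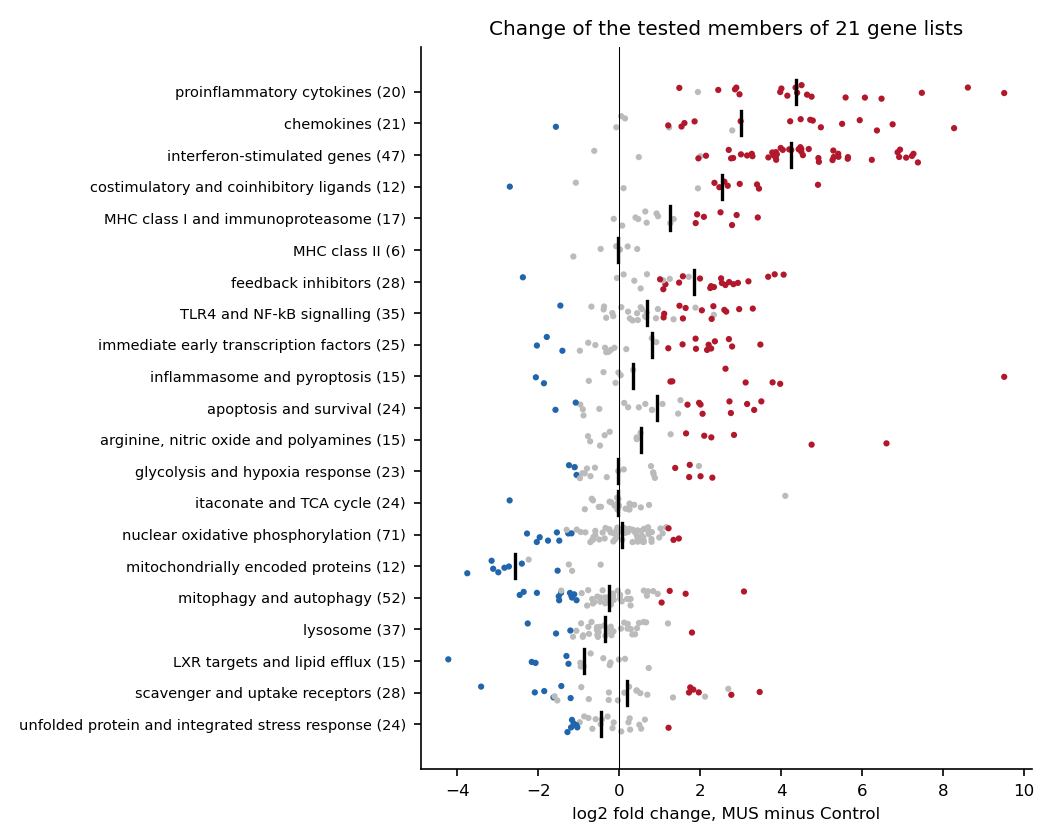
Log2 fold change of MUS minus Control (x axis) for each tested member of 21 gene lists (y axis, number tested in parentheses). Upregulated DEGs are red, downregulated DEGs blue, other members grey, and the black bar is the median, which is 4.38 for cytokines, 4.25 for interferon-stimulated genes and -2.56 for mitochondrially encoded proteins.

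Receptors and signalling genes of the TLR4 and NF-κB pathway changed in part, with 12 of 35 upregulated, 1 downregulated and a median log2 fold change of 0.68. Of these 35, 7, 18, 1 and 2 were upregulated with 1 library left out. Cd14, the LPS co-receptor, rose from 125 and 406 FPKM to 1140 FPKM in both MUS libraries (log2 fold change 2.33, standard error 0.59, limma adjusted p = 0.0296). Ripk2, the kinase downstream of NOD receptors, rose from 5.27 and 9.55 FPKM to 76.1 and 51.4 FPKM (log2 fold change 2.97, limma adjusted p = 0.00305), and Nfkb1, the p105 precursor of p50, from 7.86 and 30.4 FPKM to 103 and 97.2 FPKM (log2 fold change 2.60, limma adjusted p = 0.0170). Rela, which encodes the p65 subunit, overlapped between the groups, at 34.4 and 58.3 FPKM in Control and 28.01 and 41.7 FPKM in MUS. Tlr2 stood at 36.4 and 244 FPKM in Control and 498 and 471 FPKM in MUS (log2 fold change 2.34, standard error 0.79, limma adjusted p = 0.0690). It was not called, and with the replicate block its adjusted p was 0.0472. Of 28 feedback inhibitors 19 were upregulated and 1 downregulated (median 1.86), with 16, 21, 2 and 6 upregulated when 1 library was left out and 10 with no filter on low values. Socs3, which limits cytokine receptor signalling, stood at 3.30 and 13.6 FPKM in Control, 102 and 169 FPKM in MUS and 380 and 374 FPKM in Model (MUS vs. Control log2 fold change 4.07, standard error 0.58, limma adjusted p = 0.00481). Tnfaip3, the ubiquitin-editing enzyme A20, rose from 20.8 and 77.2 FPKM to 395 and 361 FPKM (log2 fold change 3.20, limma adjusted p = 0.00996). Nfkbia, the inhibitor IκBα, rose from 34.2 and 140 FPKM to 322 and 349 FPKM (log2 fold change 2.25, limma adjusted p = 0.0380), a call lost without the Model libraries in the fit (adjusted p = 0.0546).

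Inflammasome components did not move together. Of 15 genes tested, 7 were upregulated and 2 downregulated, and the median was 0.35. With 1 library left out 5, 7, 0 and 2 were upregulated and 3, 2, 0 and 1 downregulated. The sensor Nlrp3 rose from 7.20 and 52.5 FPKM to 309 and 271 FPKM (log2 fold change 3.79, standard error 0.78, limma adjusted p = 0.0153). Casp1, the protease that matures IL-1β, rose from 28.9 and 55.7 FPKM to 285 and 226 FPKM (log2 fold change 2.63, standard error 0.41, limma adjusted p = 0.00679), and Casp4, the sensor of cytosolic LPS, from 5.22 and 19.7 FPKM to 106 and 90.9 FPKM (log2 fold change 3.13, limma adjusted p = 0.00846). Pycard, which encodes the adaptor ASC, stood at 8.85 and 10.6 FPKM in Control and 9.94 and 8.26 FPKM in MUS (log2 fold change -0.09, standard error 0.36, limma adjusted p = 0.875). Its groups overlapped. The genes of the list that fell were Txnip, an NLRP3-binding inhibitor of thioredoxin, from 72.9 and 69.2 FPKM to 15.0 and 17.7 FPKM, and Ninj1, which ruptures the plasma membrane in lytic death, from 167 and 185 FPKM to 40.4 and 56.7 FPKM. Their log2 fold changes were -2.05 and -1.85 (limma adjusted p = 0.00411 and 0.00925), and both were chosen after their values were seen.

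Genes encoded by the mitochondrial genome were lower in MUS. Of 12 tested, 8 were downregulated, 0 upregulated, and all 12 had negative log2 fold changes (median -2.56). Leaving out 1 library left 7, 8, 2 and 7 of them downregulated. They held 3.55% and 3.62% of the summed FPKM in Control and 0.431% and 0.737% in MUS. mt-Nd4, a complex I subunit, fell from 621 and 585 FPKM to 30.8 and 62.5 FPKM (log2 fold change -3.75, standard error 0.42, limma adjusted p = 0.00259). mt-Nd1 fell from 1208 and 1077 FPKM to 98.1 and 176 FPKM (log2 fold change -3.11, standard error 0.39, limma adjusted p = 0.00358), and mt-Cytb, of complex III, from 1255 and 1027 FPKM to 126 and 161 FPKM (log2 fold change -2.98, standard error 0.35, limma adjusted p = 0.00298). For these 3 genes both MUS libraries were far below both Control libraries. mt-Co1, of complex IV, stood at 2510 and 2056 FPKM in Control and 816 and 1131 FPKM in MUS, and was not called (log2 fold change -1.24, limma adjusted p = 0.0654), although it was without the Model libraries in the fit (adjusted p = 0.0381). The Model libraries lay between, with 135 and 188 FPKM of mt-Nd4. Nuclear-encoded mitochondrial sequences limit the precision of some of these values, since the pseudogene Gm28439 shares 62.2% of the 50-base stretches of mt-Nd4. All mitochondrial genes together took 1.51% and 1.39% of the fragments in Control and 0.206% and 0.314% in MUS.

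Of the nuclear genes of oxidative phosphorylation 3 of 71 were upregulated and 8 downregulated, with a median of 0.08. These shares were 4.23% and 11.3%, against 11.2% and 9.18% of all members, so the share downwards was near that of all members. With 1 library left out 0, 1, 0 and 0 were upregulated and 2, 8, 0 and 0 downregulated, and scaling to fragment totals gave 0 and 13. Those that fell included Atpif1, the inhibitor of ATP synthase, from 11.5 and 5.46 FPKM to 0.826 and 0.897 FPKM (log2 fold change -2.27, limma adjusted p = 0.00619). Of 52 mitophagy and autophagy genes, 11 (21.2%) were downregulated and 4 (7.69%) upregulated (median -0.26), against 9.18% and 11.2% of all members. This count moved with the processing: with 1 library left out 3, 11, 0 and 2 were downregulated and 2, 4, 1 and 1 upregulated, and scaling to fragment totals gave 20 and 2. Pink1, the kinase that marks damaged mitochondria, fell from 17.9 and 10.2 FPKM in Control to 1.81 and 1.89 FPKM in MUS, and stood at 6.63 and 4.80 FPKM in Model (MUS vs. Control log2 fold change -2.36, standard error 0.30, limma adjusted p = 0.00358). Tfeb, the master factor of lysosome and autophagy genes, fell from 9.86 and 4.75 FPKM to 0.408 and 0.478 FPKM (log2 fold change -2.45, standard error 0.33, limma adjusted p = 0.00416). March5, a ubiquitin ligase of the outer mitochondrial membrane, rose from 20.4 and 22.3 FPKM to 219 and 162 FPKM (log2 fold change 3.09, standard error 0.31, limma adjusted p = 0.00204). Map1lc3b, the LC3B gene, stood at 23.1 and 17.3 FPKM against 11.7 and 13.1 FPKM, without passing the test (log2 fold change -0.65, limma adjusted p = 0.127). Tspo, an outer mitochondrial membrane protein, stood at 41.6 and 47.0 FPKM in Control, 56.2 and 91.6 FPKM in MUS and 271 and 155 FPKM in Model, and was not called in MUS vs. Control (limma adjusted p = 0.239).

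**Figure D5:**
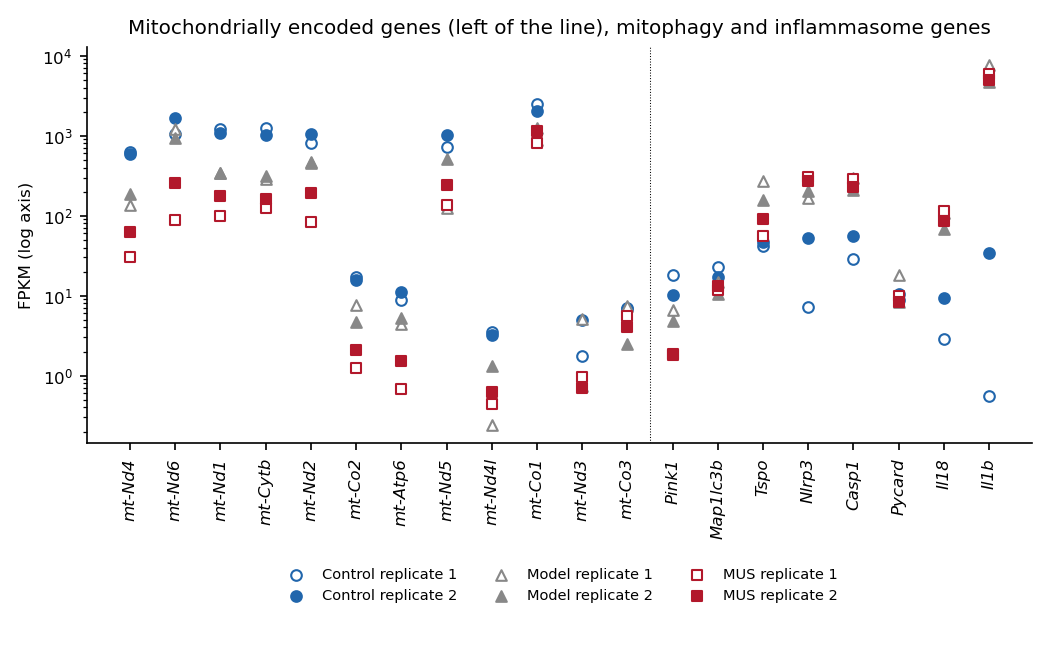
FPKM (y axis, log axis) of 12 mitochondrially encoded genes, 3 mitophagy genes and 5 inflammasome genes (x axis) in each of the 6 libraries. Among the mitochondrially encoded genes both MUS libraries (squares) lie below both Control libraries (circles), whereas Nlrp3, Casp1, Il18 and Il1b lie above and Pycard overlaps.

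Nitric oxide and polyamine genes rose in 6 of 15 cases and fell in 0 (median 0.53), with 6, 6, 1 and 2 upregulated when 1 library was left out. Nos2, the inducible nitric oxide synthase, was at 0 and 0.367 FPKM in Control and at 106 and 120 FPKM in MUS (log2 fold change 6.61, standard error 0.34, limma adjusted p = 5.8e-04). Slc7a2, the arginine transporter CAT2, rose from 6.04 and 71.0 FPKM to 632 and 585 FPKM (log2 fold change 4.76, limma adjusted p = 0.0147). Odc1, the first enzyme of polyamine synthesis, stood at 17.0 and 15.6 FPKM in Control, 93.7 and 73.6 FPKM in MUS and 30.8 and 30.3 FPKM in Model (MUS vs. Control log2 fold change 2.28, limma adjusted p = 0.00305). Glycolysis and hypoxia genes were split, with 5 of 23 upregulated and 3 downregulated (median -0.02). With 1 library left out 4, 7, 0 and 1 were upregulated and 1, 5, 0 and 0 downregulated, and scaling to fragment totals gave 3 and 10. Hk2, a hexokinase, rose from 7.88 and 12.9 FPKM to 40.8 and 47.1 FPKM (log2 fold change 2.01, limma adjusted p = 0.00673), as did Pfkfb3, which makes an activator of glycolysis (log2 fold change 2.30, limma adjusted p = 0.0103). Among 24 genes on the itaconate and TCA cycle list only Idh1 was called. Idh1 encodes a cytosolic isocitrate dehydrogenase, outside the mitochondrial cycle itself, and fell from 87.7 and 36.0 FPKM to 7.76 and 7.84 FPKM (log2 fold change -2.70, limma adjusted p = 0.00629). Acod1, which makes itaconate, reached 1664 and 1393 FPKM in MUS but was at 14.1 and 518 FPKM in Control. With a log2 fold change of 4.11 and a standard error of 1.40 it was not called (limma adjusted p = 0.0715), whereas the replicate block gave an adjusted p of 0.0394.

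Ligands that macrophages show to T cells were largely raised, with 8 of 12 costimulatory and coinhibitory genes upregulated and 1 downregulated (median 2.54). The count upwards was 8, 10, 3 and 4 with 1 library left out. Cd40 rose from 1.72 and 22.5 FPKM to 232 and 248 FPKM (log2 fold change 4.91, standard error 0.89, limma adjusted p = 0.0101). Cd274, the PD-1 ligand, rose from 58.7 and 183 FPKM to 1134 and 1091 FPKM (log2 fold change 3.41, limma adjusted p = 0.00744). The machinery that loads MHC class I rose in 7 of 17 genes and fell in 0 (median 1.27), including Tap1, the peptide transporter, from 6.33 and 19.8 FPKM to 71.0 and 100.2 FPKM, and Nlrc5, the transactivator of these genes, from 2.15 and 8.99 FPKM to 55.1 and 64.0 FPKM (limma adjusted p = 0.00969 and 0.00893). For this machinery the count was 7, 12, 0 and 0 with 1 library left out. None of 6 MHC class II genes was called in either direction (median -0.02). Apoptosis and survival genes were upregulated in 9 of 24 cases (5, 11, 1 and 4 with 1 library left out) and downregulated in 2, among them Mlkl, the executor of necroptosis, from 5.09 and 8.86 FPKM to 96.9 and 79.2 FPKM (log2 fold change 3.52, limma adjusted p = 0.00150).

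The largest decreases were spread over several functions. CT010467.1, annotated as a sequence related to 18S ribosomal RNA, fell from 399 and 670 FPKM to 13.5 and 50.3 FPKM (log2 fold change -4.25, standard error 0.63, limma adjusted p = 0.00550). The annotated gene AY036118 shares 35.7% of its 50-base stretches. The libraries were of poly-A RNA, and the part of the library preparation in this entry and the next was not tested. The entry Gm23935, annotated as a predicted miRNA gene of 57 bases, lay outside the rule for named genes and is given because its values stood out: it fell from 12079 and 2462 FPKM to 34.8 and 125 FPKM, with 691 and 2765 FPKM in Model. Tmem86a (chr7:47050601-47054777, plus strand), a lysoplasmalogenase, fell from 40.5 and 23.8 FPKM to 0.456 and 1.04 FPKM (log2 fold change -4.22, standard error 0.30, limma adjusted p = 0.00101). Cebpa, a transcription factor of myeloid differentiation, fell from 152 and 68.4 FPKM to 4.54 and 6.33 FPKM (log2 fold change -4.02, standard error 0.39, limma adjusted p = 0.00182). Slc43a2, an amino acid transporter, fell from 27.5 and 31.1 FPKM to 1.19 and 1.18 FPKM, and its replicates lay close together in both groups (log2 fold change -3.79, standard error 0.21, limma adjusted p = 5.8e-04). Cd300lb, an activating immune receptor, fell from 96.7 and 66.2 FPKM to 4.88 and 8.93 FPKM (log2 fold change -3.41, limma adjusted p = 0.00203). Mknk2, a kinase of the translation factor eIF4E, and Klc4, a kinesin light chain, had log2 fold changes of -3.25 and -3.20. Ccdc85b held 175 and 106 fragments in Control but 1 and 3 in MUS, a ratio of 48.2 in scaled fragments with an exact 95% interval of 18.6 to 178 that covers counting error only. mt-Te, a mitochondrial tRNA gene, held 17 and 22 fragments in Control and 0 in both MUS libraries. With 3 fragments per library as the limit in MUS, its level was at least 4.45-fold lower.

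Of 15 genes on the list of LXR targets and lipid efflux, 5 were downregulated (33.3%, against 9.18% of all members) and 0 upregulated (median -0.87). Their number was 4, 7, 1 and 2 with 1 library left out. Not all of the 5 downregulated genes were LXR targets or efflux genes. Besides Tmem86a they included the nuclear receptors Pparg, from 24.2 and 9.31 FPKM to 2.62 and 2.61 FPKM, Rxra, from 18.1 and 11.1 FPKM to 2.28 and 3.05 FPKM, and Nr1h3, which encodes LXRα, from 19.0 and 28.5 FPKM to 8.55 and 9.20 FPKM. Their log2 fold changes were -2.16, -2.06 and -1.30 (limma adjusted p = 0.0108, 0.00494 and 0.0166). Among 37 lysosome genes 3 were downregulated (8.11%, against 9.18% of all members) and 1 was upregulated (median -0.34). Without Control replicate 1 none was downregulated, nor without either MUS library, whereas scaling to fragment totals gave 14. Ctsd, the aspartic protease cathepsin D, fell from 4153 and 2697 FPKM to 584 and 839 FPKM (log2 fold change -2.26, limma adjusted p = 0.0198), although the annotated gene Gm49369 shares 32.4% of its 50-base stretches. Ctsc, cathepsin C, rose from 25.4 and 51.0 FPKM to 140 and 118 FPKM (log2 fold change 1.80, limma adjusted p = 0.0175). Scavenger and uptake receptors were split evenly, with 6 of 28 upregulated and 6 downregulated (median 0.19). Each share was 21.4%, against 11.2% upwards and 9.18% downwards of all members. Their numbers upwards were 6, 9, 0 and 2 with 1 library left out, and downwards 3, 7, 1 and 2. The high-affinity IgG receptor gene Fcgr1 rose from 18.3 and 7.87 FPKM to 134 and 156 FPKM (log2 fold change 3.47, limma adjusted p = 0.00305), while Stab1, a scavenger of modified lipoproteins, fell from 12.2 and 10.5 FPKM to 1.53 and 2.34 FPKM (log2 fold change -2.08, limma adjusted p = 0.00480).

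Receptors for chemoattractants moved in both directions, with 33.3% upregulated and 16.7% downregulated, against 11.2% and 9.18% of all members. Of 12 tested, 4 were upregulated and 2 downregulated, with 4, 5, 1 and 0 upregulated and 2, 4, 0 and 0 downregulated when 1 library was left out. Cxcr4, the receptor of CXCL12, fell from 79.8 and 19.2 FPKM to 4.03 and 5.11 FPKM (log2 fold change -2.87, standard error 0.58, limma adjusted p = 0.0145). Ccrl2, which binds chemerin, rose from 46.2 and 144 FPKM to 857 and 696 FPKM (log2 fold change 3.22, limma adjusted p = 0.00832). Fpr2, a formyl peptide receptor, stood at 4.89 and 174 FPKM in Control and 318 and 244 FPKM in MUS and was not called (limma adjusted p = 0.129). Of 9 ATP and adenosine receptor genes 2 rose and 0 fell, with 2, 3, 1 and 2 upregulated and 1, 2, 0 and 0 downregulated when 1 library was left out. The share upwards was 22.2% of these 9 genes, against 11.2% of all members. Adora2b, the low-affinity adenosine receptor, rose from 1.37 and 5.61 FPKM to 39.7 and 45.4 FPKM (log2 fold change 3.46, limma adjusted p = 0.00461). Clec4e, the C-type lectin Mincle, was not called either, with 24.7 and 628 FPKM against 931 and 730 FPKM in MUS (limma adjusted p = 0.160).

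Of the immediate early transcription factor genes, which respond first to a stimulus, 11 of 25 were upregulated and 3 downregulated (median 0.81). The shares were 44% and 12%, against 11.2% and 9.18% of all members. With 1 library left out 10, 10, 2 and 5 were upregulated and 2, 4, 0 and 0 downregulated. Nfil3, a basic leucine zipper repressor, rose from 7.94 and 3.75 FPKM in Control to 80.3 and 65.1 FPKM in MUS, with 34.1 and 25.8 FPKM in Model (MUS vs. Control log2 fold change 3.49, limma adjusted p = 0.00213). Nr4a3, an orphan nuclear receptor, rose from 0.110 and 0.423 FPKM to 8.17 and 6.42 FPKM (log2 fold change 2.71, limma adjusted p = 0.00130). Those that fell were Jun, Jund and Klf10, chosen after their values were seen, with log2 fold changes of -2.03, -1.78 and -1.40. Iron and metal genes were likewise divided, with 4 of 15 upregulated and 2 downregulated (median -0.40), with 4, 5, 3 and 2 upregulated and 2, 3, 0 and 0 downregulated when 1 library was left out, and scaling to fragment totals gave 4 and 6. The shares of these 15 genes were 26.7% upwards and 13.3% downwards, against 11.2% and 9.18% of all members. Lcn2, which binds bacterial iron carriers, rose from 0.333 and 1.45 FPKM to 40.8 and 44.0 FPKM (log2 fold change 4.58, limma adjusted p = 0.00101), while Steap3, an iron reductase, fell from 16.4 and 6.58 FPKM to 0.996 and 1.13 FPKM (log2 fold change -2.48, limma adjusted p = 0.00577). Of 23 genes of cholesterol synthesis and its control 1 rose and 2 fell (median 0.04), shares of 4.35% and 8.70% against 11.2% and 9.18% of all members. Without Control replicate 2 the upregulated genes numbered 4. The riser was Ch25h, which makes 25-hydroxycholesterol, from 0.194 and 1.49 FPKM to 61.6 and 45.9 FPKM (log2 fold change 4.97, limma adjusted p = 0.00130). The synthesis enzymes Dhcr7 and Mvd had log2 fold changes of -1.82 and -1.65. Of 11 prostanoid and leukotriene genes 2 rose (3, 3, 0 and 1 with 1 library left out) and 0 fell, the risers being Ptgs2 and Pla2g4a, the phospholipase that frees arachidonic acid, from 1.71 and 5.62 FPKM to 28.03 and 23.7 FPKM.

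Of the 14 macrophage markers 2 were upregulated and 1 was downregulated (4 and 2 without Control replicate 2, 0 and 0 without MUS replicate 1), with Csf1r, the CSF-1 receptor gene, falling from 208 and 272 FPKM to 98.0 and 105 FPKM (log2 fold change -1.22, limma adjusted p = 0.0323). The shares of the 14 macrophage markers, 14.3% upwards and 7.14% downwards, were near the 11.2% and 9.18% of all members. Of the 5 tested markers of the resident peritoneal macrophage 0 were called. Markers of other cells were mostly low in all 4 libraries. Of 13 markers of T and innate lymphocytes 1 passed the filter, Lck, which rose from 0.0448 and 0.134 FPKM to 2.53 and 1.91 FPKM (limma adjusted p = 0.0110), while Cd3d, Cd3e and Cd3g stayed under 0.1 FPKM. Of 8 mast cell markers Hdc alone passed, from 0.0274 and 0.0479 FPKM to 8.95 and 10.9 FPKM (limma adjusted p = 9.7e-04), and the mast cell receptor gene Fcer1a was at 0. Lck, Hdc and, below, Ccr7 passed the filter through MUS alone, which fixed their direction. The neutrophil list summed to 53.5 and 52.9 FPKM in Control and 121 and 120 FPKM in MUS, with Ly6g, S100a9 and Elane at 0. Csf3r (33.1 and 18.5 against 52.0 and 64.7 FPKM) and S100a8 (13.5 and 30.6 against 64.0 and 50.3 FPKM) made up most of that sum and were not called. The B cell list summed to 4.14 and 5.05 FPKM in Control and 4.68 and 6.65 FPKM in MUS, the eosinophil list to 6.56 and 4.53 against 6.23 and 5.40 FPKM, and none of their genes was called. The 8 dendritic cell markers summed to 87.5 and 99.5 FPKM in Control and 65.8 and 88.4 FPKM in MUS, and the mesothelial and fibroblast list to 20.46 and 19.1 FPKM against 23.9 and 26.2 FPKM. Of the 2 dendritic cell markers that passed the filter Ccr7 was upregulated (0.398 and 0.884 against 3.71 and 6.50 FPKM, limma adjusted p = 0.00624), and of 5 mesothelial and fibroblast markers Dcn was, from 2.07 and 3.13 FPKM to 7.14 and 7.12 FPKM (limma adjusted p = 0.0120). The part of other cells in the results was not tested, and fewer cells of a type cannot be told apart from less RNA per cell.

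Against Model, which shares the stimulus, 0 of the 9860 genes were DEGs in MUS (limma, smallest adjusted p 0.151), and 825 (8.37%) had an unadjusted p under 0.05, 279 higher and 546 lower in MUS. With the replicate block 12 genes were called, and fitting only the MUS and Model libraries called 5. Model replicate 1 had 24906 genes above 0, against 17406 to 19200 in the other libraries, and its spread enters this fit. The filter used Control and MUS alone, so genes expressed mainly in Model were not tested. The values of genes described above lay side by side as follows. Il1b stood at 5832 and 5003 FPKM in MUS and 7646 and 4750 FPKM in Model. Nlrp3 stood at 309 and 271 FPKM in MUS and 167 and 205 FPKM in Model. Tnf stood at 654 and 701 FPKM in MUS and 1510.5 and 1034 FPKM in Model. The MUS vs. Model log2 fold changes of these 3 genes were -0.16, 0.64 and -0.88, none of which passed even an unadjusted test. Those of mt-Nd4 and Pink1 were -1.84 and -1.22, with unadjusted limma p of 0.00305 and 0.00440, and that of Odc1 was 1.41 with 0.00105. The genes given above with Model values (Socs3, mt-Nd4, Pink1, Tspo, Odc1, Nfil3 and Gm23935) were not picked by a rule. None of them was called in MUS vs. Model in the main fit. No gene passed the adjustment, which does not show that the groups were alike.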

How the data were processed

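Poly-A RNA of mouse peritoneal macrophages was sequenced in 3 groups of 2 libraries. The authors deposited 1 table of FPKM for 54532 genes, and all 6 of its library columns were used (0 columns had no sample). The methods of the study name RSEM, whereas the submitters' processing notes name HISAT2, featureCounts 1.5.0-p3 and GRCm39, and which of them made the deposited FPKM is not given in the sources used here. Gene positions are those of GRCm38, as 98.3% of 54409 shared gene identifiers had the same start and end in GENCODE M21. In every library, 100% of values were whole multiples of 1 fragment within a tolerance of 0.1. The per-million scale behind them is not described. The library preparation as described does not mark strand, so overlapping and antisense genes cannot be separated. Symbols that a spreadsheet had turned into dates (27) were restored through their gene identifiers.

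The limma fit (limma 3.58.1, R 4.3.3, lmFit and eBayes with a mean-variance trend, two-sided) used log2(FPKM + 1) of 9860 genes with a mean of at least 1 FPKM over Control and MUS, all 6 libraries and 3 group means, with 3 residual and 4.09 prior degrees of freedom. The code was tested on simulated data. For 1 gene, the smallest p of an exact permutation of 2 libraries against 2 is 0.333. The labels give each library a batch number, equal to its replicate number, and so pair the libraries. The deviations of same-numbered libraries correlated with r = -0.10 for Control and MUS, 0.12 for Control and Model and 0.13 for Model and MUS, and the block was an alternative. Named genes were the 10 largest increases and decreases among DEGs without overlap or a predicted-gene symbol, up to 4 DEGs and the 2 highest genes of each of 38 lists, and the genes that the study measured, some of which are not reported here. The members and the lists were chosen with earlier results of these data known. Copies were sought as 50-base stretches shared with transcripts of another gene. Promoter sequences were RefSeq's (GRCm38.p6). Python 3.11.15 served for tables (pandas 2.3.3, NumPy 2.4.6) and plots (Matplotlib 3.10.9).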

Additional observations from a re-analysis of the deposited data

How the results depend on the processing

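The 2009 DEGs in MUS vs. Control (limma, Benjamini-Hochberg adjusted) numbered 870 with no filter on low values (563 upregulated, 307 downregulated, over 22943 genes), 1368 with a minimum of 5 FPKM (886 and 482) and 3228 with voom on recovered fragments (741 and 2487). Scaling changed the split more than the count: scaling to fragment totals gave 734 upregulated and 1982 downregulated genes with a median over all members of -0.40, a scale that left out mitochondrial genes and the 20 highest genes gave 727 and 2024 with -0.42, and quantile normalization 875 and 1092, whereas median-ratio scaling gave 1052 and 954. Leaving out 1 library at a time gave 161 to 2463 DEGs, with 142 to 1355 upregulated and 19 to 1108 downregulated. These fits leave a group with 1 library, which is assumed to vary like the others. With the replicate block there were 2160 DEGs (1212 and 948), of which 1973 were among the 2009. In MUS vs. Model, 0 genes were called, against 12 with the replicate block, 5 with only the libraries of both groups, 1 with a pseudocount of 0.1 and 0 to 11 when 1 library was left out.

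Of the 118 named DEGs, 68 were called under every alternative other than leaving out a library, and with no filter 49 lost the call. The replicate block removed the calls of Atf3, Atp6v0d2 and Hspa5, added those of Tlr2 and Acod1 and changed no other call of a named DEG. No named DEG changed direction, which for the fits without 1 library was fixed by the lack of overlap. Among genes that were not called, Pycard had log2 fold changes from -0.21 (without MUS replicate 1) to 0.033 (without MUS replicate 2), and 0.031 without Control replicate 2, and Lyz2 to 0.39 with quantile normalization. Depth limits the genes of short length or low FPKM, where 3 fragments or fewer stand behind a value.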

Other observations

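Small nucleolar RNAs, which guide the modification of ribosomal RNA and mostly lie in introns of other genes, formed a further group. Of 79 tested, 21 were upregulated (26.6%, against 11.2% of all members) and 1 was downregulated (1.27%, against 9.18%) in MUS vs. Control (limma, Benjamini-Hochberg adjusted). Of the 79, 25 had a Control mean under 1 FPKM, among them 12 of the 21. These passed the filter through MUS alone, so their direction was fixed by the filter. The FPKM of all 79 summed to 130.5 and 224 in the Control libraries and to 475 and 516 in the MUS libraries. Their median length was 122 bases, so that few fragments stand behind each value, and 5 of the 21 were at 0 in both Control libraries. Short genes in general, under 1000 bases, made up 14.5% of upregulated DEGs, 7.96% of downregulated DEGs and 10.5% of all members. Of 489 processed pseudogenes 54 were upregulated (11.0%, against 11.2% of all members) and 21 were downregulated (4.29%, against 9.18%).

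Lists of stress, chaperone and cell cycle genes are read here against 11.2% of all members upregulated and 9.18% downregulated. Of 24 genes of the unfolded protein and integrated stress response 1 was upregulated and 6 were downregulated, and without either MUS library 0 were called. Hspa5, the endoplasmic reticulum chaperone BiP, rose from 118 and 130 FPKM to 310 and 274 FPKM (log2 fold change 1.22, limma adjusted p = 0.0313), a call that was lost with the replicate block (adjusted p = 0.0533). Atf5, a transcription factor of the stress response, fell from 6.03 and 8.42 FPKM to 2.03 and 2.75 FPKM (log2 fold change -1.27, limma adjusted p = 0.0254). Of 16 heat shock chaperone genes 2 were upregulated and 1 was downregulated (6.25%), near those shares. Hspa8, the constitutive HSC70 chaperone, rose from 178 and 211 FPKM to 606 and 509 FPKM (log2 fold change 1.51, limma adjusted p = 0.0195), with 38.6% of its 50-base stretches shared with transcripts of other genes, mostly Gm15459. Of 18 NRF2 targets 2 were downregulated (11.1%), among them Cat, the peroxide-degrading catalase, from 58.9 and 65.0 FPKM to 19.5 and 14.6 FPKM (log2 fold change -1.82, limma adjusted p = 0.00545). Of 19 cell cycle genes 2 were upregulated (10.5%) and 0 downregulated, including Ccnd2, the cyclin D2 gene, from 0.0883 and 0.409 FPKM to 19.9 and 21.4 FPKM (log2 fold change 4.13, limma adjusted p = 0.00101).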
